A study of Mus musculus with 10 samples.

Results

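The SLC25 family holds the mitochondrial carriers, transport proteins that, with few exceptions, sit in the inner mitochondrial membrane. Genes were taken by name, as those whose symbol on the array platform is Slc25a followed by a number. This gave 44 of the 18193 named genes on the array, measured by 93 probe sets. The brightest of a gene's probe sets, by mean over the 10 arrays, stands for it, and 37 of the 44 were bright enough to be tested.

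Whole cochleae, the hearing organ of the inner ear, were compared between 5 samples labelled Polg+/+ (wild-type) and 5 labelled PolgD257A/D257A (D257A below). All came from male mice aged 9 months that were raised in a pathogen-free facility, with no treatment named, and the labels give no strain background. Polg encodes the catalytic subunit of the DNA polymerase that copies mitochondrial DNA, and the D257A change takes away its proofreading. The study asked which cochlear transcripts differ when mutations of mitochondrial DNA accumulate. The labels name no promoter, Cre or cell type that restricts the change. They number the samples within each group without saying that each is a separate animal, and the design text speaks of no replicates, so n counts arrays and p-values measure only the spread between these samples. Values are array signals in linear intensity units, whose depth has no meaning in reads, so the number of arrays limits the precision.

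Carriers of this family exchange or import one small molecule each, or a few related ones, across a membrane that is otherwise tight to them. They bring ADP and phosphate to the ATP synthase and export ATP, carry the acids and amino acids of the citric acid and urea cycles, and import cofactors, nucleotides, iron and glycine for synthesis inside the organelle. All are encoded in the nucleus and made in the cytosol, and those of the inner membrane are inserted by its carrier import pathway. The cochlea depends on oxidative metabolism for the ion pumping that keeps the endolymph charged.

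The 10 arrays were scaled alike, with trimmed mean signals (trim 2%) of 1494 to 1496. Within each group, the array least correlated with the others was replicate 3 of the wild-type (mean r 0.914) and replicate 2 of the D257A samples (0.89), with D257A replicate 4 at 0.906. Results that change without wild-type replicate 3 and D257A replicate 2 are given as such. Cochlear markers were present: 15 of the 19 measured were bright enough to be tested and 0 passed (limma), with summed signals of 182313 to 257153 in wild-type and 171087 to 243699 in D257A cochleae, although the otoconial gene Oc90 went as low as 13.6. Markers of other tissues moved with genotype. All 22 tested skeletal muscle markers were below wild-type (9 passed; sums of 245513 to 755019 against 35602.3 to 364165), as were 11 of 11 markers of secretory epithelium (8 passed; 87555.7 to 363664 against 10005.8 to 20311.2) and 8 of 8 of adipocytes (3 passed; 92693.6 to 140102 against 44990.4 to 114976). Of 14 neutrophil markers 13 were above wild-type (2 passed higher and 1 lower; 112626 to 187993 against 113132 to 325168), and of 10 markers of central nervous tissue 3 were (2 passed higher and 1 lower; 30675.5 to 109205 against 70778.5 to 197945). The last sum is led by Ttr, a gene of choroid plexus, at 8513 ± 2500 and 94331 ± 56812 (SD, n = 5 each); without it the sums were 17938.2 to 101054 against 35298.2 to 59504.7. The part of these tissues in the carrier values was not tested. In bulk RNA, fewer cells of a type and less RNA per cell cannot be told apart.

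Across the family the genotypes differed little. Of the 37 tested carriers 1 passed the test, the mitoferrin Slc25a37, which fell in D257A cochleae. That is 2.7% of the members, beside 2.28% of all 22518 tested probe sets (limma, adjusted p under 0.05), so the share of the family is near the background. Lower calls made up 1.24% and higher calls 1.03% of all probe sets. At an unadjusted p under 0.05, 4 members were counted, 10.8% of them, beside 16.9% of all probe sets; 2 were higher, beside 8.28%, and 2 lower, beside 8.64%. In 2 members, 5.41%, every D257A array lay on one side of every wild-type array, beside 5.16% of all probe sets. These were Slc25a37, which was lower, beside 2.69% of all probe sets, and Slc25a33, which was higher, beside 2.47%.

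The log2 fold change (D257A minus wild-type, on log2(signal + 16)) was positive for 22 carriers and negative for 15. Its median was 0.07, beside -0.000544 over all probe sets, and its median size without sign was 0.17 beside 0.23. Centring each array on its median shifted both medians alike, to -0.03 for the members, with 15 positive, and -0.10 for all probe sets. Under quantile normalization the members' median was 0.07, with 21 positive, beside 0.00095 for all probe sets. The members' median thus lay above that of all probe sets as deposited and under quantile normalization. Median centring moves all probe sets of an array by the same amount, so it could not change that order. The sign of the members' median flipped with it. A fold change past 0.5 in size was reached by 4 of the 37 carriers, 10.8%, beside 17.6% of all probe sets. The spread between arrays (SD of log2 signals) was larger in the D257A group for 26 of 37 carriers, 70.3%, beside 65.3% of all probe sets.

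**Figure D1:**
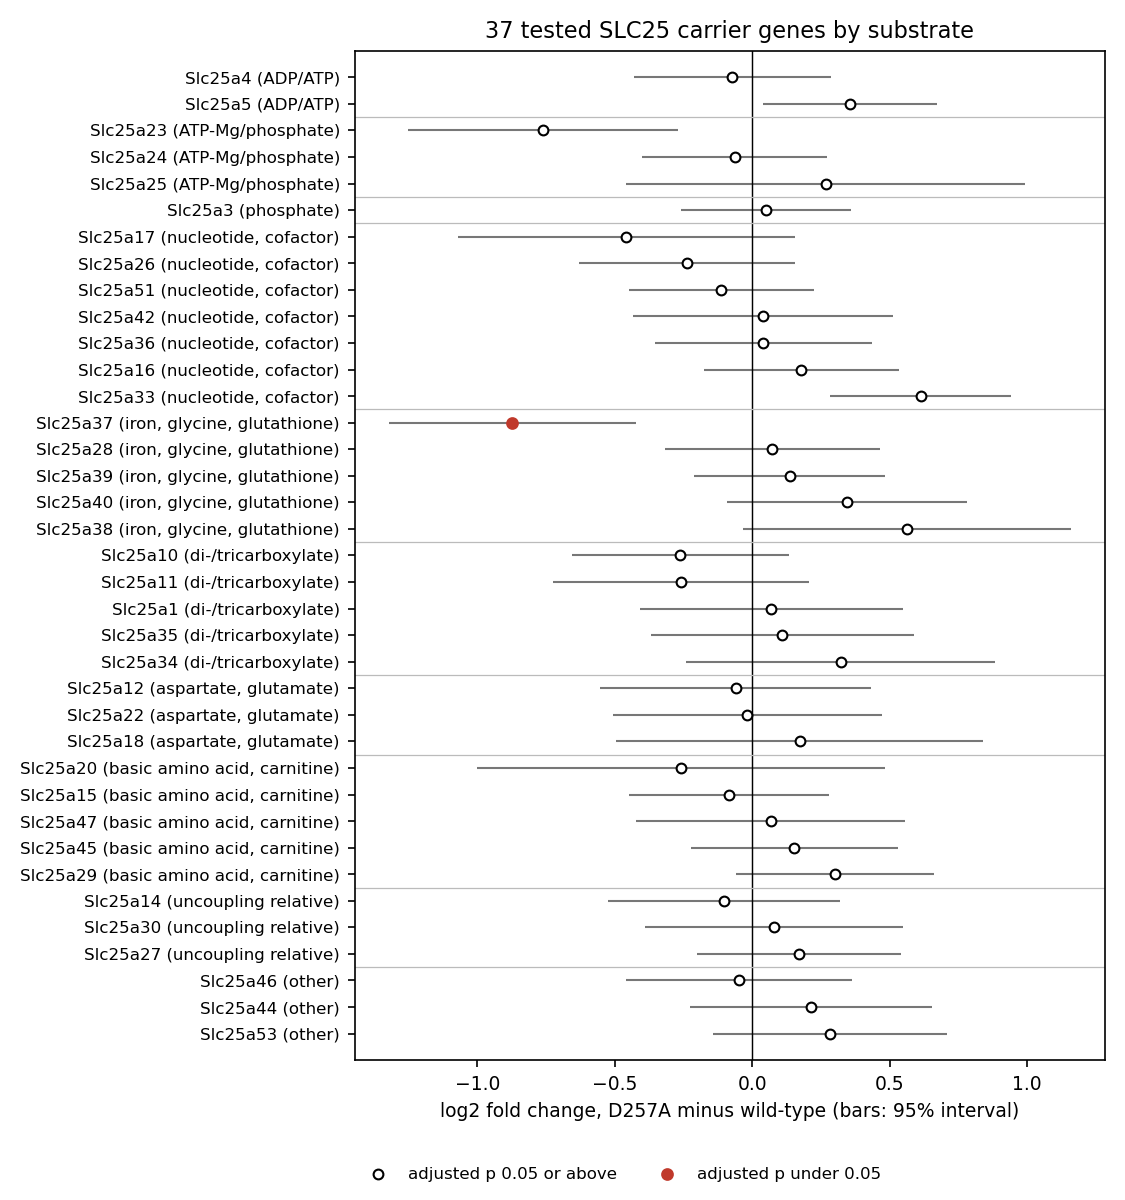
Log2 fold change (D257A minus wild-type, x axis, bars 95% interval, n = 5 arrays a group) of each of the 37 tested SLC25 genes, grouped by substrate. Slc25a37 is the filled point, the single gene past the threshold, and most intervals include 0.

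Among the carriers for iron, glycine and glutathione, the precursors and partners of heme and iron-sulphur clusters, Slc25a37 was lower in D257A cochleae while its relative Slc25a28 was not. Slc25a37 is mitoferrin 1, the mitochondrial iron importer best known from developing red cells. Its signals were 7037.5, 10340.3, 5913, 7815.6 and 8680.2 on wild-type arrays 1 to 5, and 5356.8, 4409.3, 5472, 3594.2 and 3013.9 on D257A arrays 1 to 5. Every D257A array was below every wild-type array. The means were 7957 ± 1677 and 4369 ± 1076 (SD, n = 5 each). The log2 fold change was -0.87 (SE 0.21, 95% interval -1.32 to -0.42, limma adjusted p = 0.0486), which is 1.83-fold lower in D257A on the log2(signal + 16) scale. The call lies close to the threshold. It held in 8 of 21 alternative settings and was lost in 13, among them 9 of the 10 fits that left out 1 array; over all 10 the log2 fold change ran from -0.97 to -0.75 and the adjusted p from 0.0326 to 0.145. The gene has 1 probe set named for it alone.

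**Figure D2:**
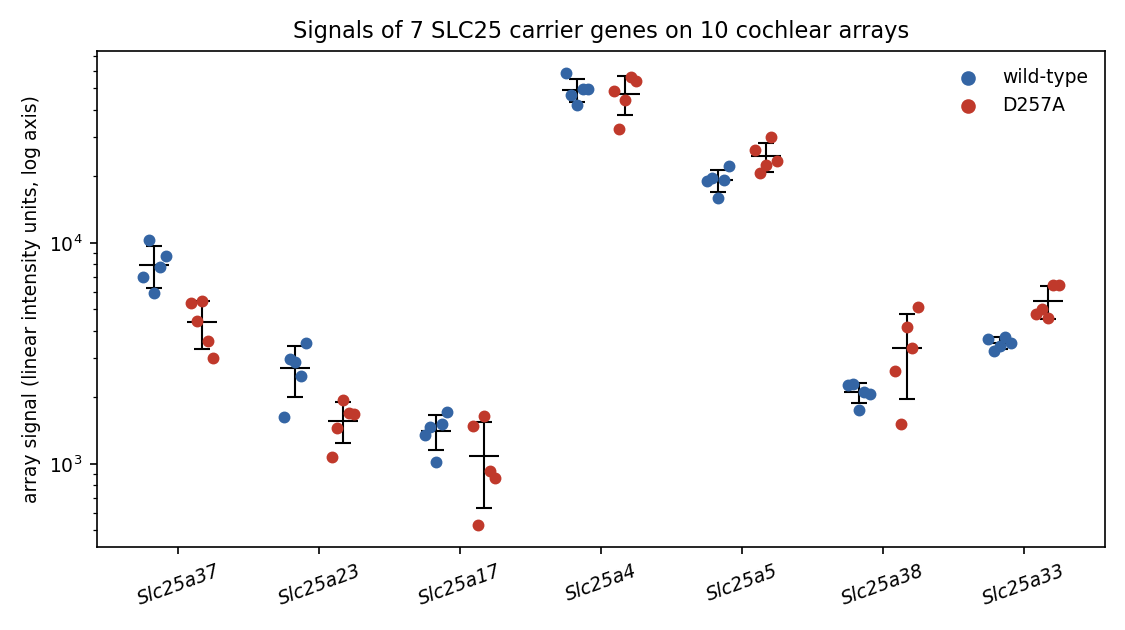
Signal on each array (points, log axis, linear intensity units) of 7 SLC25 genes, with the mean and SD of each group (bars, n = 5). The groups separate for Slc25a37 and Slc25a33 and overlap for the other 5.

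Slc25a28, mitoferrin 2, serves mitochondrial iron import in tissues generally. The group means were 3620 ± 776 (wild-type) and 3788 ± 647 (D257A, SD, n = 5 each), a log2 fold change of 0.07 (95% interval -0.32 to 0.47, limma adjusted p = 0.883). The difference between these relatives was tested directly, as the log2 signal of Slc25a37 minus that of Slc25a28 within each array. It was 1.13 ± 0.27 in wild-type and 0.18 ± 0.58 in D257A arrays (SD, n = 5 each), a change of -0.95 (two-sided exact permutation test, p = 0.00794, the smallest that 5 against 5 arrays can give; 0.0238 adjusted over 3 pairs). Slc25a37 thus changed against Slc25a28, by more than the spread between arrays. The test uses the same Slc25a37 values as the fit above, so it is not separate support for the fall of Slc25a37. Leaving out wild-type replicate 3 and D257A replicate 2 together gave -1.04, with an adjusted exact p of 0.0857 in a design of 4 against 4 arrays.

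The other carriers of this group did not pass the test. Slc25a38 brings glycine into the matrix for heme synthesis. Its signals were 2274.8, 2300.9, 1752.8, 2124.2 and 2071.5 on the wild-type arrays, and 2645.4, 1515.8, 4145.6, 3355.4 and 5130.3 on the D257A arrays. All D257A arrays but replicate 2 lay above the wild-type arrays, and replicate 2 lay below them all. The means were 2105 ± 220 and 3358 ± 1384 (SD, n = 5 each), with a log2 fold change of 0.56 (95% interval -0.03 to 1.16, limma adjusted p = 0.325; 0.0628 without D257A replicate 2). Slc25a39, which imports glutathione, was at 23287 ± 2041 and 25949 ± 5100, and its relative Slc25a40 at 1081 ± 222 and 1378 ± 287 (wild-type and D257A, SD, n = 5 each).

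Genes of heme synthesis, iron-sulphur cluster assembly and iron uptake showed no common direction. Of 16 listed, 14 were measured and tested, 7 were above and 7 below wild-type, and 0 passed (limma); the median of their log2 fold changes was -0.02. The smallest unadjusted p were those of Tfr2, a transferrin receptor that senses iron, with 750 ± 154 and 1144 ± 219 (wild-type and D257A, SD, n = 5 each; log2 fold change 0.60, limma adjusted p = 0.154), and Iscu, the scaffold for iron-sulphur clusters, with 13022 ± 1934 and 18387 ± 3464 (0.49, adjusted p = 0.158). Fech, the ferrochelatase that puts iron into heme, was at 10338 ± 969 and 9672 ± 1121 (-0.10, adjusted p = 0.771). Abcb10, an inner membrane transporter that binds mitoferrin 1, was at 2829 ± 504 and 2388 ± 545 (-0.25, adjusted p = 0.543). Abcb10 and Fech were picked out here for their known link to mitoferrin 1.

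Since mitoferrin 1 is a gene of red cell precursors, the red cell markers belong beside it. Of 20 listed, 16 were measured and 14 tested, with 5 above and 9 below wild-type and 0 past the threshold (limma). Their summed signal was 53087.3 to 68517.3 in wild-type and 46596.6 to 63244.1 in D257A arrays, which overlap. Alas2, the red cell enzyme that starts heme synthesis, was at 10112 ± 4516 and 6092 ± 2764 (log2 fold change -0.73, 95% interval -1.58 to 0.11, limma adjusted p = 0.367). Hbb-b2, a beta globin, was at 2402 ± 1034 and 4064 ± 1316 (0.78, adjusted p = 0.157), higher in 22 of 25 pairs of arrays. Within each group Hbb-b2 was highest on wild-type replicate 3 (4234.5) and D257A replicate 2 (6084). Slc4a1, the red cell anion exchanger, was at 20568 ± 4776 and 14523 ± 3146 (-0.50, adjusted p = 0.225). The probe sets of Hbb-b2 and Slc4a1 carry the suffix _x_at, for probes that may also match other transcripts. Ank1, the red cell ankyrin, was at 10006 ± 1718 and 14359 ± 1472 (0.53, adjusted p = 0.0954). None of these markers was at 0 on any array, the lowest value being 35.4 (Hba-a1), and the part of red cell precursors in the Slc25a37 value was not tested.

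**Figure D3:**
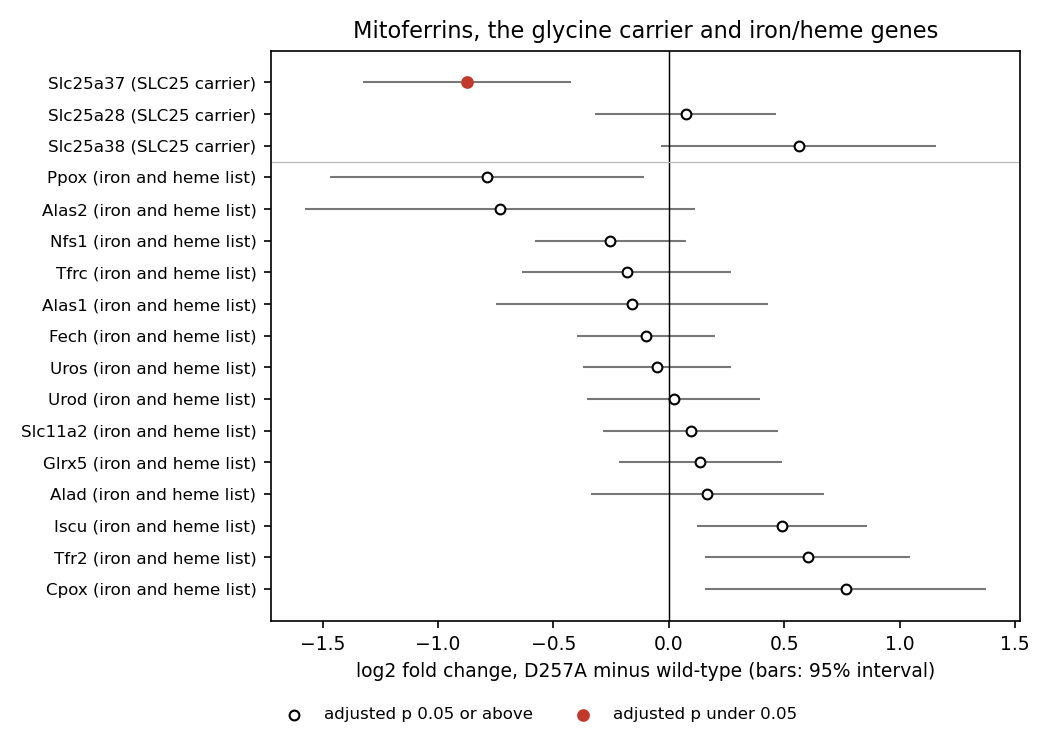
Log2 fold change (D257A minus wild-type, x axis, bars 95% interval, n = 5 arrays a group) of both mitoferrins, the glycine carrier Slc25a38 and the 14 measured iron and heme genes. Slc25a37 alone is filled as past the threshold; the listed genes fall on both sides of 0.

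Among the carriers for other nucleotides and cofactors, Slc25a33 came nearest to the threshold. It imports pyrimidine nucleotides, which are substrates for the synthesis of mitochondrial DNA and RNA. Its signals were 3674.2, 3239.4, 3415.5, 3768.8 and 3525.9 on the wild-type arrays, and 4745.5, 5044.6, 4567.7, 6468.8 and 6431 on the D257A arrays. Every D257A array was above every wild-type array, and the wild-type arrays lay close together. The means were 3525 ± 209 and 5452 ± 927 (SD, n = 5 each), with a log2 fold change of 0.61 (SE 0.15, 95% interval 0.28 to 0.94). It did not pass at 0.05 (limma adjusted p = 0.0572), and it did in 3 of 21 alternatives: quantile normalization (0.0440), array weights (0.0372) and averaging the probe sets of each gene (0.0468). Slc25a36, the other pyrimidine nucleotide carrier, was at 7553 ± 1259 and 7830 ± 1818 (log2 fold change 0.04, 95% interval -0.36 to 0.44).

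Slc25a17 is an exception in place, a carrier of the peroxisomal membrane for coenzyme A and related cofactors. Its signals were 1354.4, 1466.2, 1018.7, 1518.7 and 1708.7 on the wild-type arrays, and 1482.6, 531.5, 1644.7, 931.8 and 862.9 on the D257A arrays. The groups overlapped, with D257A replicate 2 lowest of all. The means were 1413 ± 255 and 1091 ± 461 (SD, n = 5 each), with a log2 fold change of -0.46 (95% interval -1.07 to 0.16, limma adjusted p = 0.443). Without D257A replicate 2 the log2 fold change shrank to -0.23 (limma adjusted p = 0.666). None of the other tested carriers of this group passed: Slc25a16 and Slc25a42, linked to coenzyme A, Slc25a26 for S-adenosylmethionine, and Slc25a51 for NAD. Of the 7 tested, 4 were above and 3 below wild-type.

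The calcium-regulated carriers that exchange ATP-Mg for phosphate, and so set the size of the matrix adenine nucleotide pool, did not move together. Slc25a23 had signals of 1633.7, 2990.1, 2894.5, 2509.5 and 3505.2 on the wild-type arrays, and 1074.6, 1446.3, 1941.5, 1707.2 and 1686.2 on the D257A arrays. Wild-type replicate 1 fell within the D257A range and the other 4 wild-type arrays lay above it. The means were 2707 ± 697 and 1571 ± 328 (SD, n = 5 each), with a log2 fold change of -0.76 (95% interval -1.25 to -0.27). It did not pass (limma adjusted p = 0.104), except without wild-type replicate 1, where the log2 fold change was -0.93 (0.0405). Slc25a24 was at 1976 ± 348 and 1868 ± 79.9, and Slc25a25 at 2712 ± 907 and 3371 ± 1437.

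The ADP/ATP carriers pass ATP out of the matrix in exchange for ADP. Neither Slc25a4, the form of heart and muscle, nor Slc25a5, the form of most other tissues, passed the test. The difference between their brightest probe sets still changed. The signals of Slc25a4 were 58475.3, 46551.7, 41868.8, 49548.5 and 49759.8 on the wild-type arrays, and 48865.5, 32867.9, 44478.2, 56494.4 and 54147.6 on the D257A arrays. The groups overlapped, with D257A replicate 2 lowest. The means were 49241 ± 6067 and 47371 ± 9355 (SD, n = 5 each), with a log2 fold change of -0.07 (95% interval -0.43 to 0.28, limma adjusted p = 0.870). Without D257A replicate 2 the sign turned, to 0.053 (adjusted p = 0.879).

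The signals of Slc25a5 were 19103.4, 19590.6, 15970.3, 19149.9 and 22242.4 on the wild-type arrays, and 26432.1, 20759.2, 22511.4, 30064 and 23455.5 on the D257A arrays. D257A replicate 2 lay below wild-type replicate 5, and in the other 24 of 25 pairs of arrays the D257A value was the higher. The means were 19211 ± 2228 and 24644 ± 3661 (SD, n = 5 each), with a log2 fold change of 0.35 (95% interval 0.04 to 0.67, limma adjusted p = 0.240). In none of the 21 alternatives did it pass, and the lowest adjusted p, 0.0747, came from averaging its probe sets (log2 fold change 0.47).

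The log2 signal of Slc25a4 minus that of Slc25a5 within each array was 1.36 ± 0.17 in wild-type and 0.93 ± 0.20 in D257A arrays (SD, n = 5 each). It changed by -0.43 (two-sided exact permutation test, p = 0.0159; 0.0238 adjusted over 3 pairs). Each difference joins 2 probe sets with their own response, so its level cannot be read. Its change between groups can be read only if both probe sets respond alike to the amount of RNA, which was not tested. Leaving out any 1 array kept the call, with values from -0.50 to -0.36. Leaving out wild-type replicate 3 and D257A replicate 2 together gave -0.35, with an adjusted exact p of 0.0857.

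The probe sets of the ADP/ATP carriers differed among themselves. All 8 tested probe sets of Slc25a5 were positive, with log2 fold changes of 0.15 to 0.83 and limma adjusted p of 0.111 to 0.707. In 1 of them all D257A arrays lay above all wild-type arrays. Of the 3 tested for Slc25a4, 1 was positive and 2 negative, from -0.07 to 0.30. The positive one, the next brightest of Slc25a4, was higher in 22 of 25 pairs of arrays. Its 0.30 is near the 0.35 of the brightest Slc25a5 probe set, so the size of the pair change depends on which probe sets are compared. Averaging all probe sets of each gene gave a pair change of -0.49 (two-sided exact permutation test, adjusted p = 0.0119). The suffix _x_at marks probes that may also match other transcripts; it is on 6 of the 8 tested probe sets of Slc25a5 and on the brightest of both genes, so their values are uncertain for close copies.

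**Figure D4:**
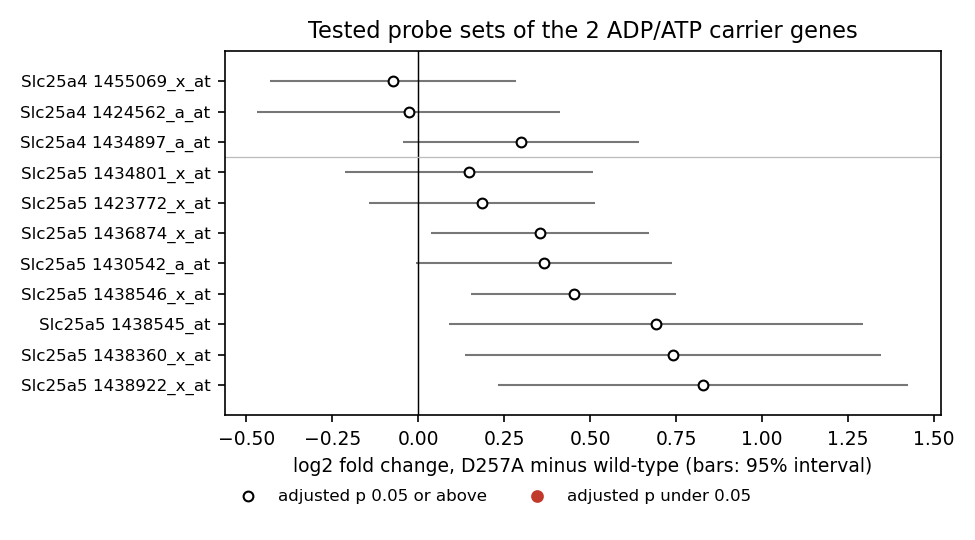
Log2 fold change (D257A minus wild-type, x axis, bars 95% interval, n = 5 arrays a group) of each tested probe set of Slc25a4 (3) and Slc25a5 (8). All Slc25a5 points are above 0, those of Slc25a4 lie on both sides, and none passed the threshold.

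Because Slc25a4 is abundant in muscle, its values stand here beside the muscle markers. The summed signal of 24 muscle markers was 755019, 551109, 245513, 502148 and 662154 on the wild-type arrays, and 68687.3, 164673, 74261.5, 35602.3 and 364165 on the D257A arrays. Among the wild-type arrays replicate 1 was highest and replicate 3 lowest both in the muscle sum and in the brightest probe set of Slc25a4. On its next brightest probe set wild-type replicate 3 was the highest wild-type array, at 49546.9, and on the third tested it was again the lowest, at 26286.7. Among the D257A arrays replicate 5, with the highest muscle sum, was next to highest in Slc25a4. Replicate 2, with the next highest sum, was lowest, and replicate 4, with the lowest sum, was highest. Ckmt2, the mitochondrial creatine kinase of striated muscle, which takes up ATP delivered by the ADP/ATP carrier, went from 10524 ± 5339 to 1480 ± 1348 (SD, n = 5 each), below wild-type on every D257A array (log2 fold change -3.20, limma adjusted p = 0.011). The dimmest muscle marker, Myh2, went as low as 18. The part of muscle RNA in the Slc25a4 and Slc25a5 values was not tested.

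**Figure D5:**
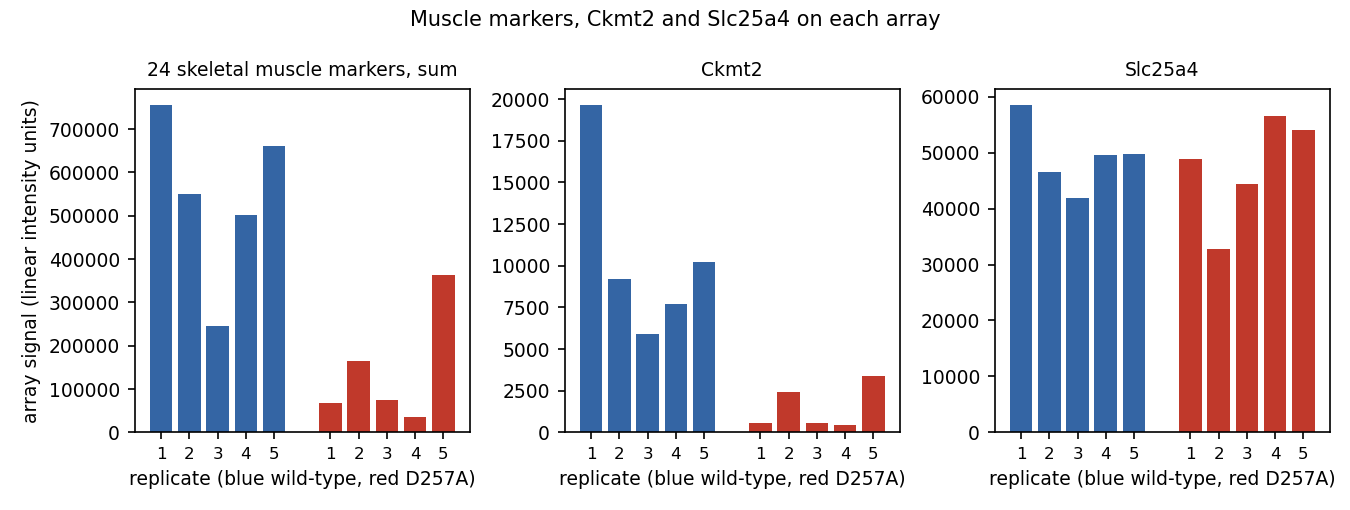
Signal on each array (bars from 0, linear intensity units) of the summed 24 skeletal muscle markers, Ckmt2 and Slc25a4, for wild-type (blue) and D257A (red) replicates 1 to 5. The muscle sum and Ckmt2 are low on D257A arrays, while Slc25a4 overlaps between the groups.

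Promoter sequence is shown for both ADP/ATP carrier genes, whose brightest probe sets changed against each other, and for Slc25a33. It covers the 250 bases before the RefSeq start (GRCm38.p6, 5′ to 3′ along the gene's strand). Capitals mark the motif matches found on either strand: in Slc25a33 a GC box (GGGCGG, here as its complement CCGCCC) and an E-box (CACGTG), in Slc25a4 an ETS core (CCGGAAG), and in Slc25a5 a GC box (as CCGCCC). The matches do not overlap.
Slc25a33, chr4:149774268-149774517, minus strand: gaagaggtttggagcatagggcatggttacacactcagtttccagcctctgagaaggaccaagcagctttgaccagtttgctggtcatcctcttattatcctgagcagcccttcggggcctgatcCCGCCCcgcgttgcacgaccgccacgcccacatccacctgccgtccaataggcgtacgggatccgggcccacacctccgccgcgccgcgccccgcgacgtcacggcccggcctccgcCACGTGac
Slc25a4, chr8:46211063-46211312, minus strand: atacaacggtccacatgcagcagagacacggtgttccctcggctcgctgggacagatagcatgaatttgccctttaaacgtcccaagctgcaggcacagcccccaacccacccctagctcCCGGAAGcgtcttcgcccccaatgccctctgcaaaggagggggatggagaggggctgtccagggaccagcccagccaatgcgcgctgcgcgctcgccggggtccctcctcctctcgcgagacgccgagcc
Slc25a5, chrX:36795347-36795596, plus strand: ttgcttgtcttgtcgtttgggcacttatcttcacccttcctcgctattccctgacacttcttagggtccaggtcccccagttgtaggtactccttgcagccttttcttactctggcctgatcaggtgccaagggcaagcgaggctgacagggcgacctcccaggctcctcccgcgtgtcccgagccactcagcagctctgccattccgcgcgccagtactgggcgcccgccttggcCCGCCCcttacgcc
Slc25a4 and Slc25a5 share none of the searched motifs in these windows. Of the 44 carrier genes 34 had a RefSeq promoter. A GC box lay in 25 of them, 73.5%, beside 35.4% of all 27025 promoters and 45.8% of the 17491 of protein-coding genes. The E-box lay in 7 (20.6%, beside 6.86% and 7.61%), the ETS core in 6 (17.6%, beside 7.83% and 10.2%) and the TATA box core TATAA in 2 (5.88%, beside 25.8% and 23.5%). The motif AAGGTCA of estrogen-related receptors lay in 1 (2.94%, beside 4.7% and 4.18%), and the NRF1 site in 0 (beside 0.877% and 1.21%). These matches are a description of letters, with no test.

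The phosphate carrier Slc25a3, which supplies the ATP synthase, was at 51602 ± 1743 (wild-type) and 54199 ± 10686 (D257A, SD, n = 5 each; log2 fold change 0.05, 95% interval -0.26 to 0.36). Its D257A arrays were spread far more widely than its wild-type arrays.

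None of the 5 carriers of di- and tricarboxylates passed, 3 above and 2 below wild-type. They include Slc25a1, the citrate carrier, and Slc25a11, which exchanges oxoglutarate for malate. Slc25a10, the dicarboxylate carrier, was at 2709 ± 364 and 2291 ± 553, and the orphan Slc25a34 at 915 ± 308 and 1152 ± 380 (wild-type and D257A, SD, n = 5 each). Of the 3 tested carriers of aspartate and glutamate, which serve the malate-aspartate shuttle and glutamate entry, 1 was above and 2 below. Slc25a18, a glutamate carrier, was at 948 ± 351 and 1075 ± 423. Slc25a12, the aspartate/glutamate carrier of brain and muscle, was at 6712 ± 1437 and 6587 ± 2064. Of its 3 tested probe sets the dimmest was higher on every D257A array (535.1 to 666.4 against 804.5 to 983.1). Its log2 fold change was 0.50 (limma adjusted p = 0.148), and that of the remaining probe set was 0.004. The difference of the brightest Slc25a12 probe set from Slc25a13, the liver form, changed by -0.03 between the groups (two-sided exact permutation test, p = 0.984). Slc25a13 was dim at 198 ± 74.2 and 248 ± 221.

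Of the 5 tested carriers of basic amino acids and carnitine 3 were above and 2 below wild-type. Slc25a29, a carrier of basic amino acids, was at 2462 ± 454 and 3019 ± 388 (log2 fold change 0.30, 95% interval -0.06 to 0.66), and Slc25a45 at 1772 ± 312 and 1970 ± 333 (wild-type and D257A, SD, n = 5 each). Of the 5 tested probe sets of Slc25a29, 2 were positive and 3 negative, from -0.30 to 0.30. Slc25a20, which carries acylcarnitines for fatty acid oxidation, was at 5750 ± 949 and 5477 ± 3233. Of the 3 relatives of the uncoupling proteins 2 were above and 1 below; Slc25a27 was at 2153 ± 321 and 2432 ± 423 and Slc25a14 at 2365 ± 256.8 and 2260 ± 679. Of the last 3, Slc25a53 was at 1933 ± 485 and 2315 ± 349, Slc25a44, a carrier of branched-chain amino acids, at 1471 ± 374 and 1665 ± 180, and Slc25a46, a protein of the outer membrane, at 9005 ± 1954 and 8658 ± 1561. No carrier in these groups passed (limma), and the lowest adjusted p among them was 0.385, that of Slc25a29.

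The 7 carriers too dim to be tested were Slc25a2, Slc25a13, Slc25a31, Slc25a32, Slc25a41, Slc25a48 and Slc25a54. The lowest mean signal tested was 577. Slc25a32, the folate and FAD carrier, came nearest, at 410 ± 63.96 and 507 ± 171 (wild-type and D257A, SD, n = 5 each). Slc25a31, the ADP/ATP carrier of the testis, was at 91.4 ± 94.0 and 68.3 ± 79.8. No member was listed at 0 on any array. Several probe sets were tested for 11 carriers, and in 6 of these they had opposite signs.

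Among genes of the import pathway that inserts the carriers of the inner membrane, more were above than below wild-type, and 0 passed. All 13 listed genes were tested, with 9 above and 4 below wild-type (limma), beside 49.9% above among all tested probe sets. Their summed signals were 55485.9 to 64528.2 in wild-type and 66540 to 76121.8 in D257A arrays, which do not overlap. They overlapped when the arrays were scaled to their medians (54444.6 to 70386.9 against 61900 to 75158.9) and not under quantile normalization (55810.4 to 63178.7 against 67613.4 to 75605.5). Tomm20 was the brightest gene of the list, at 13145.8 to 25614.2 in wild-type and 18771.6 to 30615.5 in D257A arrays. The sums weigh it most, so their separation cannot be read as that of the whole list. The list's median log2 fold change was 0.11 as deposited (beside -0.000544 over all probe sets), 0.01 with median centring (beside -0.10) and 0.15 with quantile normalization (beside 0.00095). Timm8b, a small chaperone of the intermembrane space, was at 2144 ± 157 and 3690 ± 1517 (log2 fold change 0.69, limma adjusted p = 0.154), and Tomm20, a receptor of the outer membrane, at 16965 ± 5112 and 23314 ± 4577 (0.48, adjusted p = 0.246).

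Of the other proteins of the carrier fold, named outside the Slc25a series, 4 of 5 were measured and 0 passed (limma). Ucp1, the uncoupling protein of brown fat, was at 4474 ± 352 (wild-type) and 11082 ± 8551 (D257A, SD, n = 5 each), a log2 fold change of 0.96 (adjusted p = 0.275), with D257A arrays from 3777.4 to 24704.4. The 8 tested adipocyte markers had negative log2 fold changes, from -0.05 (Lipe) to -1.60 (Adipoq). Ucp1 was higher on D257A replicates 2, 4 and 5 than on replicates 1 and 3. So were Adipoq, Cidec, Plin4 and Fabp4, while Cidea, Retn, Scd1 and Lipe were not ordered in this way. The part of fat tissue in the Ucp1 value was not tested. Mtch2, an outer membrane protein, was at 5700 ± 806 and 4737 ± 921 (-0.28, adjusted p = 0.459). Of 20 other genes of mitochondrial transport, 16 were measured and tested, 7 above and 9 below wild-type, and 1, Ckmt2, passed, as lower. Next by unadjusted p was Ckmt1, the creatine kinase of other tissues, at 4798 ± 1176 and 3625 ± 1583 (-0.50, adjusted p = 0.475).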

How the data were processed

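Biotin-labelled total RNA of 10 cochlear samples had been hybridised to mouse Affymetrix arrays. The deposited values are linear array intensity. GCOS 1.3 produced them, per the submitters' processing notes. How background and probe summary were handled is not given in the sources used. The authors' scaling was kept, and 64 control probe sets were left out. Of 45037 probe sets, 34945 had 1 gene in the platform table, whose symbols can be old, 932 several and 9160 none; only those with 1 gene were named.

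Groups came from the labels. Signals were taken as log2(signal + 16), so fold changes understate those of dim genes. Tests covered the brighter probe sets by mean over the 10 arrays, a fraction of 0.5 (22518), in limma 3.58.1 under R 4.3.3 (lmFit and eBayes, trend on; group as the only term, 8 residual degrees of freedom), two-sided, with Benjamini-Hochberg adjustment over all of them at 0.05. Adjusted p-values are from this fit. The design text gives a threshold without naming its test, so that rule was not run. Pairs of genes were compared by exact permutation of all 252 splits, adjusted over 3 pairs. Intervals are 95%.

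The members, gene lists and roles were chosen with earlier results of these data known. Signals on each array are given for Slc25a4, Slc25a5, Slc25a37, members that passed or whose groups do not overlap, and the 6 with the largest fold change; of each role and each list of related genes, the 2 genes with the smallest unadjusted p, with a few others, and the red cell and nervous tissue markers named, added after their values had been seen. Alternatives were pseudocounts of 1 and 64, median centring, quantile normalization, no intensity trend, no filter, the brightest 30%, weighted arrays, a replicate block, averaging the probe sets of each gene and each array left out. Leaving out the array least correlated with its own group in each group, and leaving Ttr out of the nervous tissue sum, were chosen after seeing the data. A simulation of D257A against wild-type on 22518 probe sets, 200 of them shifted, gave back 51% of shifts of 1 log2 unit and 89% of shifts of 2, with 4.11% false calls. It drew independent normal noise for each probe set, with the same spread in both groups. In the data the D257A spread was larger for 65.3% of probe sets, so these rates need not hold for these arrays. Promoters are RefSeq's (GRCm38.p6).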

Additional observations from a re-analysis of the deposited data

Results flagged for a closer look

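In 5 of 74 groups of 5 arrays, 1 array lay far from the other 4 (Dixon's test at 95%, critical value 0.71); chance alone gives about 5% of groups. The oxoglutarate carrier Slc25a11 was at 3521.4 in wild-type replicate 3, with the next lowest wild-type array at 6013.1. The basic amino acid carrier Slc25a29 was at 3258.3 on the same array, with the next highest at 2349.2. Slc25a14 was at 3432 in D257A replicate 2, with the next highest D257A array at 2137.8. These 3 values come from the array least correlated with its own group in each group. Slc25a34 was at 1452.8 in wild-type replicate 4, with the next at 864.5, and Slc25a44 at 1974.9 in D257A replicate 3, with the next at 1642.8.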

How the results depend on the processing

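The Slc25a37 log2 fold change kept its sign in all 21 alternatives. It lost the call with quantile normalization (-0.85, limma adjusted p = 0.0605), with no filter (-0.87, 0.0555), with no trend (-0.87, 0.0560) and in 9 of 10 fits without 1 array (-0.96 to -0.75); it kept it without wild-type replicate 3 (-0.97, 0.0326). The count of carriers that passed was 0 with no filter and with no trend, and 2 with array weights and with averaging each gene's probe sets (Slc25a33 and Slc25a37 in each); it was 0 to 1 without single arrays, the 1 being Slc25a23 without wild-type replicate 1 and Slc25a37 without wild-type replicate 3, and under quantile normalization it was Slc25a33 in place of Slc25a37. All tested probe sets called went from 513 to 322 in the brightest 30%, 1217 with array weights, 200 with gene means, and 168 to 574 without single arrays, lowest without wild-type replicate 2. Carriers whose groups do not overlap went from 2 to 4 without D257A replicate 2 (2 to 4 over single arrays) and to 5 without wild-type replicate 3 and D257A replicate 2 together (Slc25a5, Slc25a29, Slc25a33, Slc25a37 and Slc25a38). There Slc25a37 was at -0.99 (adjusted p = 0.0348) and the pair differences were -0.35 (Slc25a4 minus Slc25a5) and -1.04 (Slc25a37 minus Slc25a28), with adjusted exact p of 0.0857 each. The Slc25a4 log2 fold change ran from -0.14 to 0.053 without single arrays, and was 0.053 without D257A replicate 2. Without single arrays the pair differences were -0.50 to -0.36 (Slc25a4 minus Slc25a5) and -1.07 to -0.74 (Slc25a37 minus Slc25a28). Slc25a12 minus Slc25a13 turned to 0.0039 with a pseudocount of 1, 0.24 with quantile normalization, 0.18 with gene means, and -0.36 to 0.43 without single arrays, of which it was positive without wild-type replicate 1 (0.15), D257A replicate 1 (0.43) and D257A replicate 3 (0.16). The causes were not tested.

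Samples with the same replicate number did not deviate together as a set (correlations of deviations from the group means from -0.34 to 0.18). Of 5 wild-type arrays 1 correlated best with its own number. These 5 correlations cannot exclude a shared origin for some numbers, and the labels name none. With the replicate number as a block, 188 probe sets and 0 carriers were called, Slc25a37 was at -0.87 (limma adjusted p = 0.137), and the pair differences stayed at -0.43 and -0.95 with adjusted exact p of 0.1875 each, where 5 pairs cannot go below an unadjusted 0.0625.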
